A study of Mus musculus with 22 samples.

Results

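MC38 is a mouse colon carcinoma cell line, and the tumors compared here grew from MC38 cells injected under the skin of the left flank of wild-type mice. The strain was C57BL/6N and the mice were 8 to 12 weeks old and female. Tumors of day 46 (3 samples) were compared with tumors of day 23 (3 samples), for all genes of the deposited table. These are 6 of the 22 samples of the series. All 6 shared the host strain, the genotype, the cell line and the absence of any treatment, so that the groups differed by the day alone as far as the labels go. Of 46882 genes in the table, 14746 reached 5 normalized counts on average in the 12 tumors of the study and were tested. The 12 tumors include 3 of day 13 and 3 of day 23 labelled RAG1-/- (B6.129S7-Rag1tm1Mom/J), a genotype without mature T and B cells. They were used here for the estimate of the spread and for a comparison of the hosts. Each RNA sample was a piece of a tumor, and the labels number the tumors without naming the animals, so that p-values measure the spread between these samples.

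A tumor under the skin consists of cancer cells and of host cells that entered it. Vessels bring endothelial cells and, around them, contractile mural cells, the pericytes and smooth muscle cells. Fibroblasts deposit collagen and elastic fibers. Macrophages in tumors range from inflammatory states, often called M1, to states tied to tissue repair, often called M2. Activated T cells and natural killer cells release interferon-gamma, which raises antigen presentation and chemokine genes in cancer cells and host cells alike. In bulk RNA, fewer cells of a type and less RNA per cell cannot be told apart.

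Wild-type tumors held 7312850 to 17104093 reads on genes, and 3 reads, taken as the floor, corresponded to 1.88 to 4.75 normalized counts. Replicate 3 of day 23 was the smallest library. Although the labels name the source as tumor cells, the libraries held host messages. Adgre1, the gene of the macrophage marker F4/80, stood at 1108, 909 and 618 normalized counts at day 23 and 602, 973 and 669 at day 46, and at 0 in both libraries of cultured MC38 cells. Epcam, an epithelial adhesion gene, had 0 to 6.82 normalized counts in the 6 tumors and 0 and 3.91 in MC38, so that it does not mark these cells. Genes with no read in MC38 (27154 genes) took 0.637% to 1.08% of the reads at day 23 and 0.56% to 1.05% at day 46, and these ranges overlap.

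No gene passed the main test. With limma on log2(normalized count + 1) and an adjusted p under 0.05, 0 genes were higher (0.0% of 14746) and 0 lower (0.0%) at day 46, and the lowest adjusted p was 0.103. At an unadjusted p under 0.05, 686 genes were higher (4.65%) and 575 were lower (3.9%). All 3 tumors of day 46 lay above all 3 of day 23 in 1035 genes (7.02%) and below them in 802 (5.44%). Of all genes tested, 50.5% had a fold change above 0 and 49.5% below it, with a median of 0.005 on the log2 scale. On reads recovered from the deposited values, edgeR called 0 genes in either direction (732 higher and 582 lower at an unadjusted p under 0.05), and DESeq2 called 25 higher (0.17% of 14717) and 16 lower (0.109%). The DESeq2 counts depended on single tumors. Without replicate 1, 2 or 3 of day 23 they were 25, 31 and 5 higher and 21, 31 and 7 lower. Without replicate 1, 2 or 3 of day 46 they were 119, 10 and 48 higher and 149, 8 and 30 lower. Eln and Myl9 among the 25, and Epha7 and Bst2 among the 16, were called in all 6 of these fits. Below, "higher" and "lower" describe levels, and a DESeq2 call is named where there was one. For every list below, the shares of all genes to compare at an unadjusted p under 0.05 are 4.65% higher and 3.9% lower. For genes without overlap they are 7.02% higher and 5.44% lower.

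**Figure D1:**
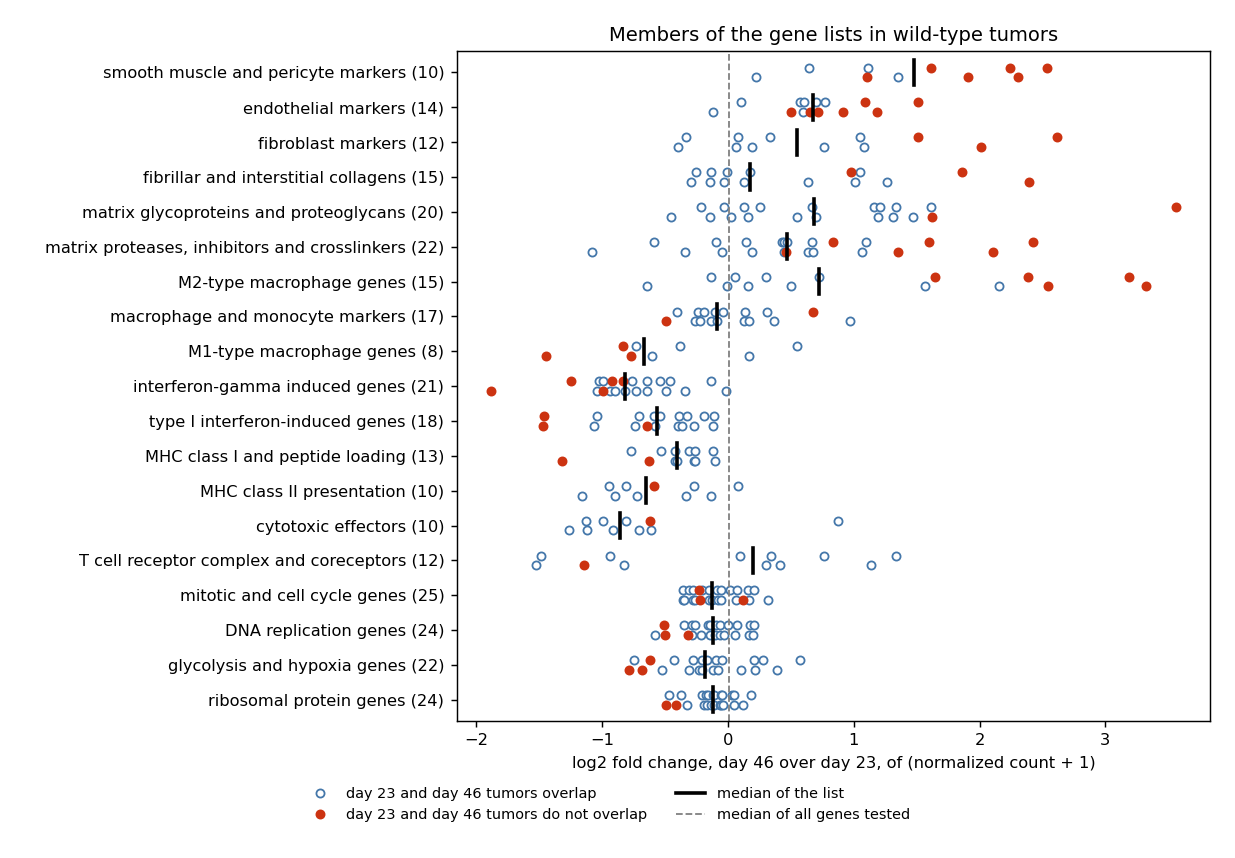
Members of 19 gene lists by their log2 fold change, day 46 over day 23, of (normalized count + 1) in wild-type tumors, with the number of members tested in parentheses. Filled red points are genes whose 3 tumors of each day do not overlap, black bars are list medians and the dashed line is the median of all 14746 genes tested. Smooth muscle and pericyte markers lie to the right (median 1.48), and interferon-gamma induced genes to the left (median −0.82).

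Several genes listed as smooth muscle and pericyte markers, and Eln, stood higher at day 46 than at day 23. Eln encodes elastin, the core protein of elastic fibers (chromosome 5, 134702593 to 134747323, minus strand, GRCm38). It had 59.7, 39.2 and 46.0 normalized counts in the day 23 tumors and 254, 760.1 and 971 in the day 46 tumors. Every late tumor lay far above every early one, and replicate 1 was the lowest of the late tumors. The log2 fold change was 3.56 (standard error, SE, 0.54, with an adjusted p of 0.103 in limma and 3.10e-05 in DESeq2). Cultured MC38 cells had 0.856 and 0.978 and skin 2747 and 1671, so the late tumors lay between the cells and skin.

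Myl9 encodes a regulatory light chain of smooth muscle myosin (chromosome 2, 156775420 to 156781658, plus strand). It stood at 24.3, 29.8 and 9.51 normalized counts at day 23 and 111, 168 and 82.9 at day 46, with no overlap of the groups (log2 fold change 2.53, SE 0.47, with an adjusted p of 0.285 in limma and 0.000445 in DESeq2). Acta2, smooth muscle actin, had 259, 177 and 90.3 and then 716, 1464 and 422 normalized counts. Its lowest late tumor, replicate 3, was still above the highest early tumor (log2 fold change 2.24, SE 0.46, with an adjusted p of 0.385 in limma and 0.0301 in DESeq2). Notch3, the Notch receptor of mural cells, had 14.0, 17.0 and 9.51 normalized counts at day 23 and 61.6, 154 and 34.5 at day 46. Replicate 2 was the highest of the late tumors for Myl9, Acta2 and Notch3. Abcc9, a subunit of a potassium channel of vascular smooth muscle, had 25.8, 31.5 and 26.9 against 92.8, 138 and 50.9. Aoc3, an amine oxidase of smooth muscle and fat, had 8.11, 4.26 and 15.8 against 55.7, 113 and 30.1. DESeq2 called Notch3, Abcc9 and Aoc3 higher (adjusted p = 0.0062, 0.0128 and 0.0062, against 0.385 for each from limma).

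Of 12 smooth muscle and pericyte markers, 10 were tested, and all 10 had a fold change above 0 (median 1.48, against 0.005 for all genes). At an unadjusted p under 0.05, 6 were higher and 0 lower, and these 6 were also the ones without overlap (Mylk, Rgs5, Tagln, Acta2, Notch3 and Myl9). Leaving out any 1 wild-type tumor gave 5 or 6 such genes and a median of 1.20 to 1.92. The days overlapped in Cspg4, Mcam, Des and Myh11, with log2 fold changes of 0.23, 0.64, 1.12 and 1.35. Which cells held the messages of this list was not tested. Tagln, the actin-binding protein transgelin, had 28.0, 13.6 and 15.8 normalized counts at day 23 and 87.0, 113 and 36.4 at day 46, and 67.9% of its exonic bases lie opposite another gene, so that its reads are uncertain without strand. Rgs5, a regulator of G protein signaling in pericytes, had 176, 211 and 47.5 and 335, 647 and 239, with replicate 3 of day 23 far below the other early tumors. MC38 cells had at most 35.1 normalized counts of any of these 6 genes, and that value belonged to Mylk.

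The CArG box is the motif bound by serum response factor in many smooth muscle genes. It was searched on both strands of the 250 bases before the start of each gene in the RefSeq promoter table of GRCm38.p6, where 1.47% of 32851 promoters held a match. The form searched was strict, CC and GG with only A or T between them, and a match is only a run of letters. Bases outside the 250 were not searched. Tagln and Myh11 were not found in that table by symbol and were not searched. Of the 10 smooth muscle and pericyte markers found in it, 1 held a match, Myl9. Its stretch is shown because Myl9 was called in every DESeq2 fit, with the match in capitals, 5′ to 3′ on the strand of the gene.
Myl9 (chr2:156775263-156775352, plus strand): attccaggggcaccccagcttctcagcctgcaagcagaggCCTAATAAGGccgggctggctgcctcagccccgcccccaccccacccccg

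Endothelial markers lay in the same direction, with smaller differences. All 14 were tested, and 13 had a fold change above 0 (median 0.68). At an unadjusted p under 0.05, 5 were higher and 0 lower, and 7 did not overlap. Without replicate 2 of day 46 the 5 became 2, and the median 0.40. Vwf, von Willebrand factor, had 36.1, 32.4 and 28.5 normalized counts at day 23 and 76.2, 111 and 97.3 at day 46 (log2 fold change 1.51, SE 0.39, with an adjusted p of 0.385 in limma). Kdr, the main receptor of vascular endothelial growth factor, had 119, 81.0 and 63.4 and 237, 256 and 121 (log2 fold change 1.18). Its lowest late tumor, replicate 3, lay just above the highest early tumor. Pecam1, a junction protein of all endothelium, had 166, 154 and 136 and 198, 271 and 185, a step of 0.50 on the log2 scale. Robo4, Flt1, Cdh5 and Esam were also without overlap, with log2 fold changes of 1.09, 0.65, 0.91 and 0.71.

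**Figure D2:**
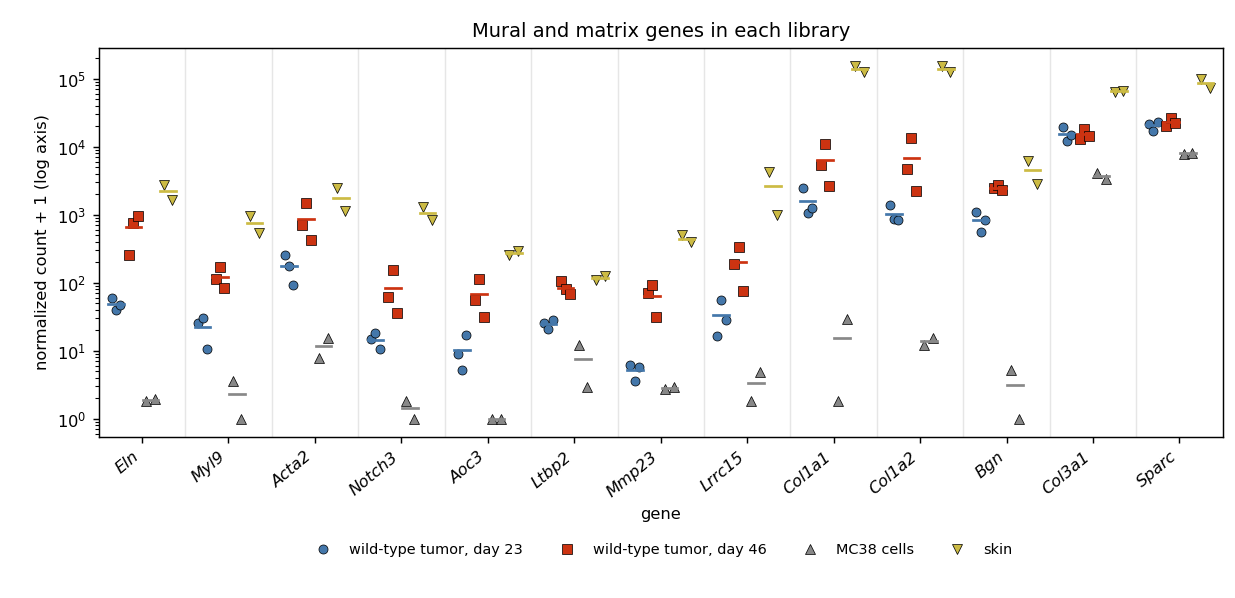
Normalized count + 1 (log axis) of mural and matrix genes in each library of MC38 cells (2), skin (2) and wild-type tumors of both days (3 each). Points are libraries and horizontal bars are arithmetic means. For Eln, Myl9 and Acta2 the late tumors lie above the early ones and near or below skin, while Col3a1 and Sparc overlap between the days.

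Of 15 collagen genes tested, 9 had a fold change above 0 and 6 below it (median 0.18), while 5 were higher at an unadjusted p under 0.05 and 0 lower. Without replicate 1 of day 23 all 15 lay above 0 (median 0.67), and over the 6 fits that left out a wild-type tumor the median ran from 0.058 to 0.67. The 5 became 3 without replicate 3 of day 23 or replicate 2 of day 46. Col1a1 and Col1a2 encode the chains of type I collagen. Col1a1 stood at 2451, 1073 and 1247 normalized counts at day 23 and 5327, 11095 and 2680.2 at day 46. Col1a2 stood at 1373, 853 and 829 and 4700.0, 13504 and 2237. In both genes the late tumors were all above the early ones, with replicate 2 highest and replicate 3 lowest (log2 fold changes 1.86 and 2.40, SE 0.58 and 0.69, with an adjusted p of 0.438 and 0.385 in limma). DESeq2 called neither (adjusted p = 0.269 and 0.172). Col3a1, the chain of type III collagen, overlapped fully, with 19211, 12139 and 14902 normalized counts at day 23 and 12949.8, 18468 and 14243 at day 46 (log2 fold change −0.01, SE 0.39), and its sign differed with the scaling. MC38 cells had 4040.2 and 3336 normalized counts of Col3a1 but only 0.856 and 28.4 of Col1a1 and 11.1 and 14.7 of Col1a2. Col18a1, which yields endostatin, had 764, 627 and 786 and then 1020.3, 1091 and 2593, and replicate 3 of day 46 stood apart from the other late tumors.

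Among 20 matrix glycoproteins and proteoglycans, 16 had a fold change above 0 (median 0.68), and 6 were higher at an unadjusted p under 0.05 against 0 lower. Without replicate 2 of day 23 the 6 became 3. Bgn, the proteoglycan biglycan, had 1108, 565 and 839.8 normalized counts at day 23 and 2440.4, 2727 and 2298 at day 46. The late tumors lay close together and well above the highest early tumor. Fn1, fibronectin, had 9010.1, 7393 and 12549 against 14383, 8622 and 28825, and Sparc, a matrix glycoprotein that binds collagen, had 21629, 17141 and 22877 against 20109, 26493 and 22095. The days overlapped in both. Ltbp2, a protein of the microfibrils that carry elastin, had 25.1, 19.6 and 26.9 and then 107, 79.2 and 66.6 (log2 fold change 1.76, SE 0.40, with an adjusted p of 0.385 in limma and 0.0156 in DESeq2). It was counted in the list of the TGF-beta pathway, which had a median of 0.07. Of its 16 genes, 2 were higher (12.5%) and 1 lower (6.25%) at an unadjusted p under 0.05, against 4.65% and 3.9% of all genes. The lower gene was Smad7, an inhibitor of that pathway, with 602, 637 and 865 and 529.7, 504 and 465.

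Of 22 genes of matrix proteases, their inhibitors and crosslinking enzymes, 17 had a fold change above 0 (median 0.47). At an unadjusted p under 0.05, 3 were higher (13.6%, against 4.65% of all genes) and 0 lower. The days did not overlap in 6, all higher at day 46, as in 7.02% of all genes. These counts became 6 higher and 1 lower without replicate 1 of day 46, and 4 higher and 2 lower without replicate 2 of day 46. Loxl1, a lysyl oxidase that crosslinks elastin, had 44.3, 10.2 and 31.7 normalized counts at day 23 and 139.8, 287 and 62.2 at day 46. Loxl2, which crosslinks collagen, had 36.1, 50.3 and 49.1 and 115, 304 and 73.5. The late values ran from just above the early ones, in replicate 3, to several times as high, in replicate 2 (log2 fold changes 2.42 and 1.60, adjusted p = 0.385 and 0.444 from limma). Mmp3, the protease stromelysin, had 33.2, 55.4 and 42.8 and 122, 456 and 119, and DESeq2 called it higher (log2 fold change 2.11, SE 0.58, with an adjusted p of 0.385 in limma and 0.0156 in DESeq2). Mmp23, a membrane-tethered metalloprotease outside this list, had 5.16, 2.56 and 4.75 and 70.4, 90.6 and 30.8, with the early values close to the floor of 3 reads (DESeq2 adjusted p = 0.0033).

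Of 14 fibroblast markers 12 were tested, 10 had a fold change above 0 (median 0.55) and 4 were higher at an unadjusted p under 0.05, against 0 lower. Without replicate 2 of day 46 the 4 became 2, and the median 0.20. Fap, a protease of activated fibroblasts, had 22.1, 5.11 and 7.92 normalized counts at day 23 and 29.3, 47.7 and 54.6 at day 46. Cxcl12, a chemokine of stromal cells, had 37.6, 28.1 and 12.7 and 88.9, 263 and 147, and replicate 2 was again the highest late tumor. Lrrc15, a membrane protein of fibroblasts that respond to TGF-beta, had 15.5, 55.4 and 26.9 and 185, 337 and 75.3 and was called by DESeq2 (log2 fold change 2.51, SE 0.60, with an adjusted p of 0.385 in limma and 0.0118 in DESeq2). Serpinh1, the collagen chaperone HSP47, stood lower at 2425, 2729 and 2815 normalized counts at day 46, against 5203, 4082 and 6763 at day 23. P4ha1, a prolyl hydroxylase that acts on collagen, stood at 2308, 1922 and 1485 against 2786, 2971 and 4086. Neither overlapped between the days, and DESeq2 called both lower (adjusted p = 0.0331 and 0.0492, against 0.385 for both from limma).

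All 25 genes that DESeq2 called higher were above their day 23 mean in skin, as were 7434 of the 14746 genes tested. Of the 25, 13 (52%) had at most 3 reads in any MC38 library, against 9.64% of all genes tested. Of the 16 called lower, 3 were above their day 23 mean in skin, and 1 (6.25%) had at most 3 reads in MC38. These shares describe the calls, and were not tested.

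Most genes of an M2-type list had a fold change above 0, and an M1-type list had a median below 0. Of 17 macrophage and monocyte markers, 1 was higher and 1 lower at an unadjusted p under 0.05, with a median of −0.09. These shares (5.88% each) were near those of all genes (4.65% and 3.9%). Of 16 M2-type genes 15 were tested, 7 were higher and 0 lower, and 12 had a fold change above 0 (median 0.72, also with genes at 0 in 1 group set to their bound). Without replicate 3 of day 23 or replicate 2 of day 46 the 7 became 4. Of 10 M1-type genes 8 were tested, with 0 higher and 4 lower (median −0.67). Without replicate 1 or replicate 3 of day 46 the 4 became 2. Cxcl10, 1 of the 4, and Cxcl9 are also in the interferon-gamma list below. The summed level of the M1-type list was 4114 to 9003 normalized counts in the 6 tumors and 6248 and 5528 in MC38 cells. MC38 cells had 15104 and 14160 for the M2-type list, against 236 and 279 for the macrophage and monocyte markers. Neither the M1-type nor the M2-type list is thus confined to macrophages.

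Mrc1, the mannose receptor CD206, had 406, 276 and 136 normalized counts at day 23 and 736, 1250.2 and 517 at day 46, without overlap (log2 fold change 1.65, SE 0.42, with an adjusted p of 0.385 in limma). F13a1, a coagulation factor made by tissue macrophages, had 35.4, 85.2 and 42.8 and 615, 1369.7 and 162. Its lowest late tumor, replicate 3, was nearest to the early tumors, and replicate 2 was the farthest from them (log2 fold change 3.32, SE 0.87, with an adjusted p of 0.385 in limma). Cd163, a scavenger receptor for hemoglobin, had 13.3, 0.852 and 3.17 and 17.6, 49.7 and 15.7. Folr2, a folate receptor of resident macrophages, had 11.8, 6.82 and 19.0 and 68.4, 132 and 18.2. In Folr2 the lowest late tumor lay below the highest early tumor, and DESeq2 called the gene higher (log2 fold change 2.16, adjusted p = 0.438 from limma, 0.0481 from DESeq2), while 63.1% of its exonic bases lie opposite another gene. Retnla, a secreted product of M2-type cells, had no read in the 3 early tumors and 3.91, 4.03 and 29.5 normalized counts in the late tumors. The late average was at least 3.93-fold higher than the mean floor of 3 reads per library. This average rested on replicate 3, since the other late values lay below the floor of replicate 3 of day 23 (4.75). Ccl8, a chemokine of such macrophages, had 193, 129 and 105 and 486, 2482 and 438. Arg1 and Spp1 did not follow. Arg1, the arginase of M2-type cells, had 334, 576 and 404 and 638, 1217 and 186, and replicate 3 of day 46 was the lowest of the 6 tumors. Spp1, osteopontin, had 4986, 3717 and 10889 and 6745, 2988 and 2622, and MC38 cells had 8517 and 7833.

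Nos2, the inducible nitric oxide synthase of M1-type cells, had 161, 194 and 402 normalized counts at day 23 and 38.1, 129 and 123 at day 46. Every late tumor was below every early tumor (log2 fold change −1.44, SE 0.47, with an adjusted p of 0.444 in limma). Il1b, interleukin-1 beta, had 464, 420.3 and 359.7 and 285, 300.1 and 163. Itgax, the integrin CD11c of dendritic cells and many tumor macrophages, had 1030.4, 701 and 1144 and 477, 603 and 428 (log2 fold change −0.91, SE 0.24, with an adjusted p of 0.385 in limma and 0.0573 in DESeq2). Neither gene overlapped between the days. C1qa, a complement component made by macrophages, was lower as well, with 2811, 1707 and 1443 and 1259, 1405 and 1401, while Mertk, a receptor for the uptake of dead cells, had 114, 82.7 and 106 and 149.5, 199 and 139.

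**Figure D3:**
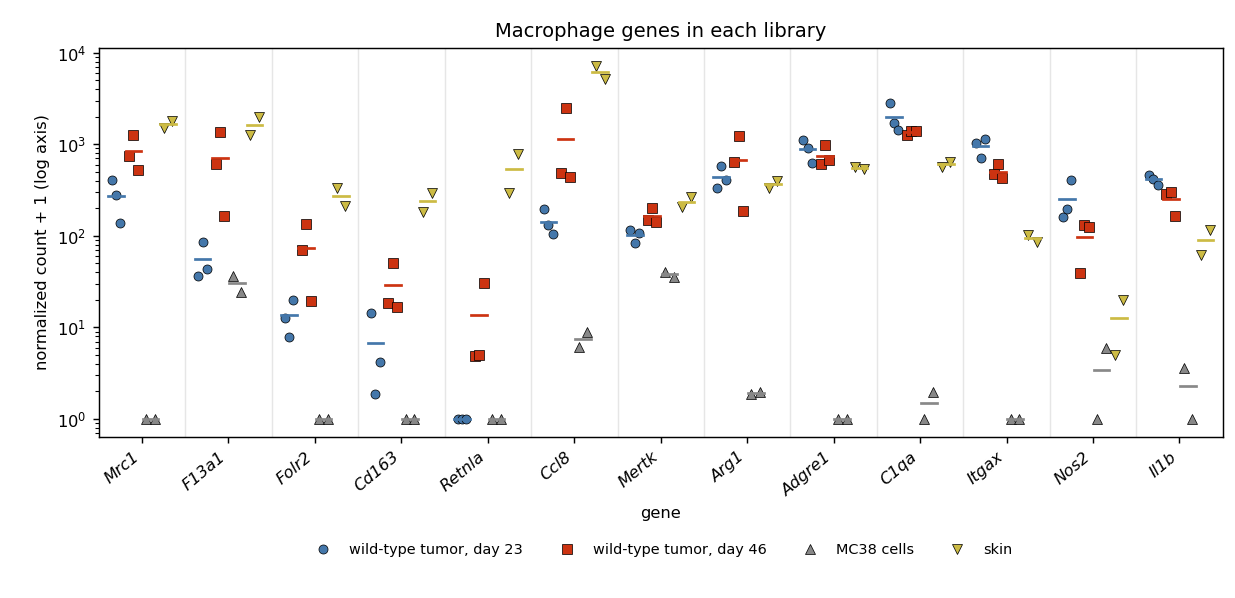
Normalized count + 1 (log axis) of macrophage genes in each library of MC38 cells (2), skin (2) and wild-type tumors of both days (3 each). Points are libraries, bars are arithmetic means, and a value of 1 stands for 0 reads. Mrc1, F13a1, Cd163, Retnla and Ccl8 lie higher in all late tumors, Nos2, Il1b, Itgax and C1qa lower, and Adgre1 and Arg1 overlap. Retnla is near the floor in replicates 1 and 2 of day 46.

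Interferon-induced genes had fold changes below 0 at day 46. Of 22 interferon-gamma induced genes 21 were tested, and 21 had a fold change below 0 (median −0.82, against 0.005 for all genes). At an unadjusted p under 0.05, 12 were lower and 0 higher, and 5 did not overlap. The 12 became 6 without replicate 1 of day 23 and 7 without replicate 1 of day 46. All 18 genes induced by type I interferon also had a fold change below 0 (median −0.56), with 4 lower and 0 higher. The 4 became 2 without replicate 3 of day 23, 10 without replicate 2 of day 23 and 12 without replicate 3 of day 46. Replicate 2 of day 23 had the lowest mean of the early tumors and replicate 3 of day 46 the highest of the late ones in both lists. For the interferon-gamma list the means of log2(normalized count + 1) were 9.25, 8.32 and 8.83 at day 23 and 7.63, 7.96 and 8.48 at day 46. The means overlapped in this list, as they did in the type I list.

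The interferon-stimulated response element (ISRE) is the motif bound by interferon regulatory factors. Its core, GAAA, any 2 bases and GAAA, was searched on both strands of the 250 bases before the gene starts of the RefSeq table of GRCm38.p6. It was found before 936 of 27025 genes (3.46%; 2.98% of 32851 promoters), before 11 of the 15 interferon-gamma induced genes matched by symbol (73.3%) and before 6 of the 14 matched genes of the type I list (42.9%). A match is a run of letters, not a measured site. Stretches of 4 genes whose tumors of each day did not overlap are shown as examples. Rsad2 and Gbp5 also held a match, and their days did not overlap, but their stretches are not shown. Matches are in capitals (overlapping matches run together), 5′ to 3′ on the strand of the gene.
Bst2 (chr8:71537547-71537642, minus strand): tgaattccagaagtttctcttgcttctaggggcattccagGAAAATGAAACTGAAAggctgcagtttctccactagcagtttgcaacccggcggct
Isg15 (chr4:156200835-156200936, minus strand): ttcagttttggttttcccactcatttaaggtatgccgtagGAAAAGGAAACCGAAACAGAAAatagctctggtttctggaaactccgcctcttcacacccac
Cxcl10 (chr5:92349053-92349139, minus strand): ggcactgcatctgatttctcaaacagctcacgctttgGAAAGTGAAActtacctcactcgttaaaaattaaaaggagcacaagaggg
Tgtp1 (chr11:48992274-48992363, minus strand): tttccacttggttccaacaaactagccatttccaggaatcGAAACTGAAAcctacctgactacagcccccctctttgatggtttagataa

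Bst2, which encodes tetherin and holds 2 overlapping matches in the stretch above, had 639, 337 and 387 normalized counts at day 23 and 229.7, 122 and 139 at day 46. The highest late tumor, replicate 1, was below the lowest early tumor (log2 fold change −1.46, SE 0.27, with an adjusted p of 0.285 in limma and 0.00136 in DESeq2). Isg15, a ubiquitin-like protein with 3 overlapping matches, had 1069, 351 and 716 and 311, 129 and 315, and here too the days did not overlap (log2 fold change −1.47, SE 0.42, with an adjusted p of 0.385 in limma and 0.0539 in DESeq2).

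Cxcl10, a chemokine that draws T cells through CXCR3, had 3319, 1560.0 and 2001 normalized counts at day 23 and 1077, 1243 and 1359 at day 46, and MC38 cells alone had 665 and 615. Its relative Cxcl11 had 46.5, 24.7 and 60.2 and 15.6, 15.4 and 19.5. In both the late tumors lay below the early ones. The third ligand of the receptor, Cxcl9, overlapped, with 3899, 2282 and 1982 and 736, 2709.9 and 1917. Tgtp1, a GTPase induced by interferon-gamma with a near-identical neighbour, had 76.0, 36.7 and 84.0 and 15.6, 20.8 and 12.6. This was the largest fold change in the list (−1.88, SE 0.63, with an adjusted p of 0.444 in limma), and reads of this copy cannot be separated safely from those of Tgtp2, which stood at −0.94. Iigp1 and Gbp2, GTPases of defense against intracellular microbes, had 3118, 1135 and 2023 and 3585, 1419 and 2172 normalized counts at day 23 and 899, 913 and 1343 and 518, 1250.2 and 1950.0 at day 46. In these, replicate 2 of day 23 lay within the range of the late tumors.

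**Figure D4:**
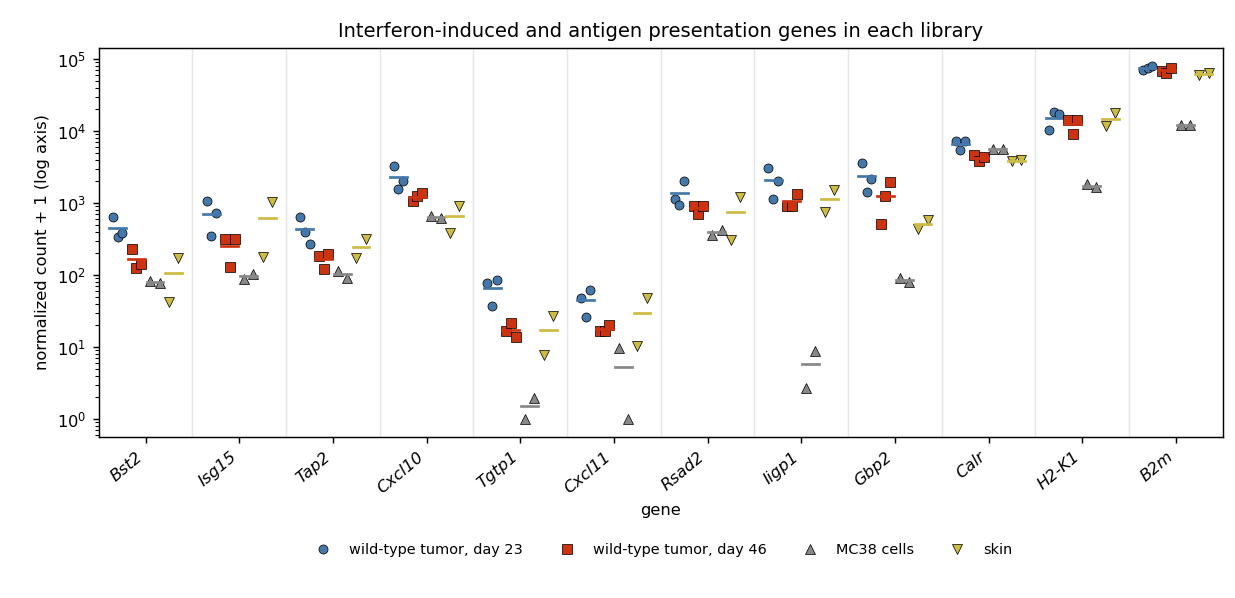
Normalized count + 1 (log axis) of interferon-induced and antigen presentation genes in each library of MC38 cells (2), skin (2) and wild-type tumors of both days (3 each). Points are libraries and bars are arithmetic means. Bst2, Isg15, Tap2, Cxcl10, Tgtp1, Cxcl11, Rsad2 and Calr do not overlap between the days, while Iigp1, Gbp2, H2-K1 and B2m do.

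Genes that load and present antigen also lay mostly below 0. All 13 genes of MHC class I and peptide loading had a fold change below 0 (median −0.41), with 3 lower and 0 higher at an unadjusted p under 0.05. Without replicate 3 of day 46 the 3 became 8. Tap2, a subunit of the transporter that brings peptides to MHC class I, had 635, 396 and 266 normalized counts at day 23 and 181, 120.2 and 195 at day 46, and 18.5% of its exonic bases lie opposite other genes. Calr, calreticulin, a chaperone of the class I heavy chain, had 7222, 5487 and 7314 and 4648, 3882 and 4330.2, with little spread within a day. DESeq2 called both lower (adjusted p = 0.0128 and 0.0176, against 0.385 for both from limma, at log2 fold changes of −1.32 and −0.63). The presenting molecules themselves overlapped. B2m, their light chain, had 70068, 75287 and 81701 and 69606, 63953 and 75604 (log2 fold change −0.12, SE 0.21). H2-K1, a class I heavy chain, had 10210.2, 18381 and 17295 and 14121, 9214 and 14207 (log2 fold change −0.27, SE 0.21). Of 10 genes of MHC class II presentation, 9 had a fold change below 0 (median −0.65), with 3 lower and 0 higher. The 3 became 0 without replicate 1 of day 46, 6 without replicate 3 of day 46, 5 without replicate 3 of day 23, 2 without replicate 2 of day 23 and 1 without replicate 1 of day 23 or replicate 2 of day 46. Cd74, the invariant chain, had 3859, 2412 and 2364 and 673, 1601 and 3137, and replicate 1 of day 46 was the lowest of the 6 tumors.

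Messages of T cells and natural killer cells were low and varied widely. Of 19 genes of the T cell receptor complex and its coreceptors 12 were tested, with 0 higher and 0 lower at an unadjusted p under 0.05 (median 0.20). The sign of this median depended on single tumors, since it fell below 0 in 4 of the 6 fits that left out a wild-type tumor (range −0.15 to 0.44). Cd8a, a chain of the CD8 coreceptor, had 79.7, 17.0 and 49.1 normalized counts at day 23 and 5.86, 14.1 and 30.8 at day 46 (log2 fold change −1.49, SE 0.77, with an adjusted p of 0.622 in limma). Cd3e had 17.0, 11.1 and 7.92 and 3.91, 18.8 and 23.2. Both overlapped, and replicate 1 of day 46 was the lowest of the 6 tumors in both. Of 13 cytotoxic effector genes 10 were tested, and 9 had a fold change below 0 (median −0.86), with 1 lower at an unadjusted p under 0.05, Srgn, the granule proteoglycan serglycin, which macrophages also express (1395, 1628 and 1279 and 789, 1194 and 851). Without replicate 2 of day 46 the 1 became 4, and without replicate 1 of day 46 the median was −0.42, with 7 of 10 below 0. Gzmb, granzyme B, had 89.2, 54.6 and 77.6 and 17.6, 50.4 and 60.9. Klrd1, the receptor chain CD94 of natural killer cells, had 62.0, 34.1 and 38.0 and 5.86, 22.2 and 25.7, below every early tumor, at a log2 fold change of −1.45 (SE 0.62, with an adjusted p of 0.548 in limma). Foxp3, the factor of regulatory T cells, had 0, 6.82 and 0 and 0, 9.40 and 4.39, in part below the floor, and this depth could not show a difference. Of 14 B cell and immunoglobulin genes 6 were tested, 0 higher and 0 lower. Cd274, the gene of PD-L1, is induced by interferon-gamma and overlapped between the days, with 259, 251 and 414 and 138, 251 and 276.

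Epha7 was the lower gene with the smallest p. It encodes an ephrin receptor (chromosome 4, 28813131 to 28967499, plus strand) and had 75.2, 63.1 and 103 normalized counts at day 23 and 20.5, 24.2 and 8.79 at day 46 (log2 fold change −2.19, SE 0.40, with an adjusted p of 0.285 in limma and 0.00065 in DESeq2). Cultured MC38 cells had 101 and 115, like the early tumors, and skin 12.1 and 12.7, like the late ones. Ndufb4, a subunit of respiratory complex I, had 1298, 1338 and 1218 and 829, 704 and 821, Fam162a, a mitochondrial protein induced by hypoxia, 9447, 11730.0 and 12579 and 7345, 5769 and 5988, and Aspa, which cleaves N-acetylaspartate, 697, 705 and 791 and 478, 319.6 and 334. In each the late tumors lay below the early tumors by a step of less than 1 on the log2 scale (−0.71, −0.82 and −0.97), with a narrow spread, and DESeq2 called all 3 (adjusted p = 0.00675, 0.0153 and 0.0118, against 0.385 for each from limma).

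Lists of growth and metabolism had medians just below that of all genes, and some held more lower genes than the 3.9% of all genes. Of 25 mitotic and cell cycle genes, 0 were higher and 0 lower at an unadjusted p under 0.05 (median −0.12). Mki67, a marker of dividing cells, had 1460.4, 1037 and 1540.2 normalized counts at day 23 and 2027, 1671 and 1325 at day 46. Of 24 DNA replication genes 3 were lower (12.5%) and 0 higher (median −0.12), among them Pcna, the sliding clamp, with 2351, 2652 and 2589 and 1773, 2096 and 1536. Of 22 genes of glycolysis and hypoxia 4 were lower (18.2%) and 0 higher (median −0.18), and DESeq2 called P4ha1 among them. Car9, a carbonic anhydrase induced by hypoxia, had 864, 696 and 579.9 and 518, 388 and 478, and MC38 in culture only 6.84 and 2.93. Pgam1, a glycolytic mutase, had 330.4, 479 and 450.0 and 314, 225 and 243. Of 24 ribosomal protein genes 2 were lower (8.33%) and 0 higher (median −0.12). Leaving out a wild-type tumor gave 0 to 5 lower genes for the cell cycle, 2 to 4 for replication, 2 to 6 for glycolysis and hypoxia and 0 to 5 for ribosomal proteins. Of 14 genes listed for colon epithelium and tumor cells 5 were tested, of which 3 had a fold change below 0 (median −0.22) and 1 was higher at an unadjusted p under 0.05. That gene, Lgr5, a receptor of intestinal stem cells and hair follicles, had 1.48, 0 and 1.58 and 14.7, 29.5 and 10.7 normalized counts, with 1.71 and 4.89 in MC38 and 629.6 and 614 in skin.

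Markers of skin, muscle and blood varied between pieces, beside the results above. Keratinocyte and hair follicle markers (12 of 15 tested) had a median fold change of −2.29, with 5 lower at an unadjusted p under 0.05. This rested in large part on replicate 2 of day 23, whose summed level was 2481 normalized counts, against 445 and 889 in the other early tumors, 306 to 424 in the late ones and 525620 and 517580 in skin. Krt5, a basal keratin, had 1.48, 136 and 0 normalized counts at day 23 and 1.95, 0 and 0 at day 46, so that only replicate 2 of day 23 held more than 2 normalized counts. The 5 lower genes became 9 without replicate 3 of day 23 and 3 without replicate 1 of day 46. Without replicate 2 of day 23, 6 of these genes passed the filter on low values, the median was −1.05 and 2 were lower. The mean of log2(normalized count + 1) of the smooth muscle and pericyte markers in that tumor was 5.45, between the 6.18 and 5.37 of the other early tumors. This covers 1 tumor and 1 tissue only.

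Skeletal muscle markers (18 of 18 tested) had 0 higher and 0 lower at an unadjusted p under 0.05, with 16 of 18 above 0 and a median of 0.98. The median was 2.49 without replicate 1 of day 46, with 6 higher, and −0.33 without replicate 2 of day 23. Their mean of log2(normalized count + 1) was 5.98, 2.09 and 4.68 at day 23 and 2.32, 6.66 and 6.50 at day 46. On this scale the smooth muscle and pericyte markers had 6.18, 5.45 and 5.37 and then 6.96, 7.86 and 6.70. Replicate 1 of day 23 and replicate 2 of day 46 were the highest of their day in both lists. The lowest of their day in skeletal muscle markers were not the lowest in the other list. Acta1, skeletal muscle actin, had 285, 11.1 and 209 and 17.6, 637 and 665. The lowest tumors of each day, replicate 2 of day 23 and replicate 1 of day 46, lay close together. Red cell markers (6 of 8 tested) had 5 higher and 0 lower (median 2.59, or 2.73 with Slc4a1, at 0 in day 23, set to its bound). Hba-a1, an alpha-globin gene with a near-identical copy, had 379, 467 and 192 and 277, 2999.9 and 14968. Replicate 1 of day 46 lay within the early tumors, and replicate 3 lay far above all other tumors. Without replicate 3 of day 46 the 5 became 2. DESeq2 called Hba-a1 and Hba-a2 higher (adjusted p = 0.0215 and 0.0301, against 0.444 and 0.418 from limma). Of 12 adipocyte markers 7 were tested, with 0 higher and 1 lower, and Fabp4, which endothelium and macrophages also express, had 198, 136 and 217 and 260.0, 557 and 345. Of 8 mast cell markers 6 were tested, 2 were higher and 0 lower (median 1.19), and Cpa3, a protease of mast cells, had 12.5, 32.4 and 1.58 and 8.80, 28.9 and 52.1. The 2 became 0 without replicate 1 or replicate 3 of day 23, 3 without replicate 2 of day 23 and 1 without replicate 2 or replicate 3 of day 46, with medians from 0.66 to 2.04. Smooth muscle and fibroblast genes are expressed in skin as well. The part of adjoining skin, muscle, vessels or blood in the higher levels at day 46 was not tested.

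**Figure D5:**
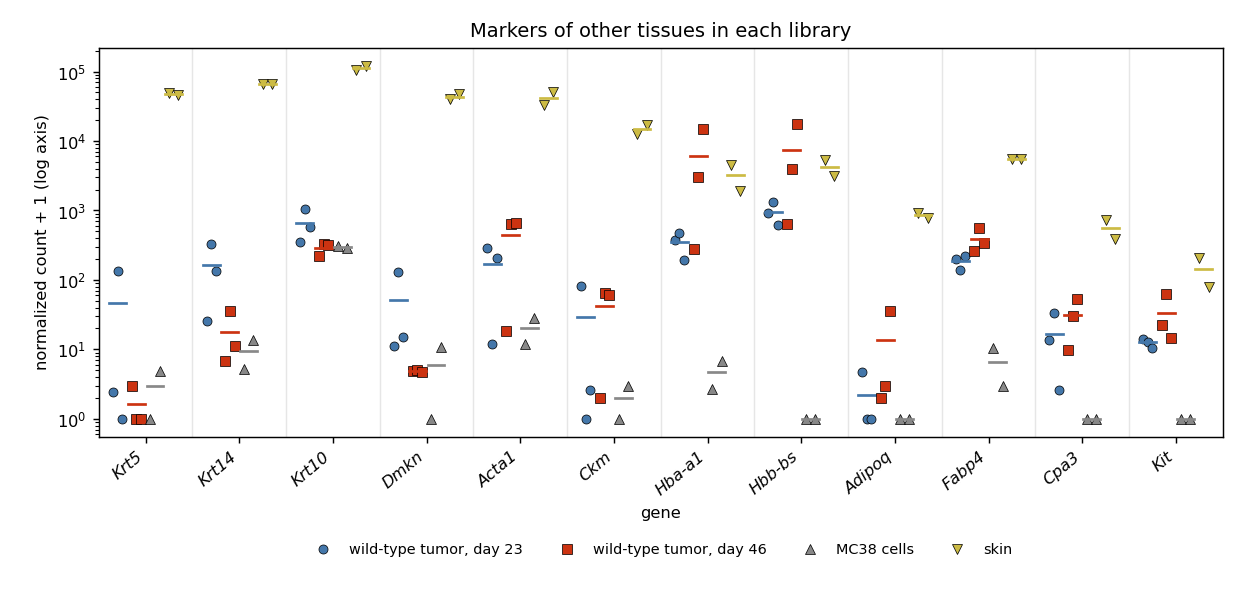
Normalized count + 1 (log axis) of markers of keratinocytes, skeletal muscle, red cells, fat and mast cells in each library of MC38 cells (2), skin (2) and wild-type tumors of both days (3 each). Points are libraries, bars are arithmetic means, and a value of 1 stands for 0 reads. Krt5 is high in 1 early tumor, Acta1 and Ckm are low in 1 tumor or more of each day, and the globins are high in 2 late tumors.

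The later against the earlier day was also compared between the hosts, as the difference between days 46 and 23 in wild-type mice minus that between days 23 and 13 in mice labelled RAG1-/-. Rag1, the targeted gene, was read in all 6 libraries labelled RAG1-/- (at most 12 reads) and in 1 of the 6 wild-type libraries (1 read). This is the reverse of what a lost message would give. The deleted part of Rag1 is not given in the sources used here, so these reads cannot settle the genotype. Each direction here rests on the labels as given. Of 14 B cell and immunoglobulin genes, the 6 tested had means of log2(normalized count + 1) of 4.02 to 6.04 in wild-type tumors. In tumors labelled RAG1-/- they had 1.58 to 2.47. Of 19 genes of the T cell receptor complex and its coreceptors, the 12 tested had 3.19 to 5.16 and 1.04 to 2.17. Neither list overlapped between the hosts. The genes tested passed a filter on the mean of all 12 tumors, which a gene high in 1 host can pass through that host alone. This gap is thus in part built in and does not settle the labels. The origin of the Rag1 reads was not tested. The days differ between the hosts, so that time and host cannot be told apart, and the comparisons share no tumors. In limma 0 genes were higher (0.0% of 14746) and 0 lower (0.0%). DESeq2 called 36 higher (0.245% of 14717) and 22 lower (0.149%). For Eln the tumors labelled RAG1-/- had 208, 56.7 and 299 normalized counts at day 13 and 58.9, 104 and 85.7 at day 23, and the days overlapped. The difference of the differences was 4.47 (SE 0.76, with an adjusted p of 0.148 in limma and 0.000195 in DESeq2). Acta2 in tumors labelled RAG1-/- had 356, 235 and 459 and 143, 368 and 188, and the difference was 2.89 (adjusted p = 0.267 from limma, 0.0658 from DESeq2). For Mrc1 the difference was 2.01 (SE 0.60, with an adjusted p of 0.4 in limma).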

How the data were processed

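RNA of the wild-type tumors was measured on an Ion Proton with QuantSeq, a library preparation that counts transcripts by their 3′ ends. Per the labels and methods, the authors trimmed the reads with Cutadapt and Trimmomatic, aligned them to mm10 with STAR and then Bowtie2, kept the primary alignment, removed ribosomal reads, counted with HTSeq-count and divided by DESeq2 size factors. What they deposited is a signal per gene, the count after this division. The strand setting, annotation and versions are not given in the sources used here, so that near-identical, overlapping and antisense genes are uncertain. All values (100%, tolerance 0.01 reads) were whole multiples of 1 read, and reads were recovered from them. Floors cover counting error only, and the sources used here do not mention molecular identifiers.

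limma 3.58.1 (R 4.3.3) was fitted to log2(normalized count + 1), a scale that understates the change of low genes, for 14746 genes in all 12 tumors with 4 groups and a mean-dependent trend, two-sided, with Benjamini-Hochberg adjustment at 0.05. edgeR 4.0.16 and DESeq2 1.42.0 on recovered reads were alternatives. With 3 against 3 tumors an exact permutation test of 1 gene cannot give a p below 0.1. In a test on simulated reads for day 46 against day 23 (14554 genes) limma recovered 40% of 80 genes changed 2-fold, 87.5% of 80 changed 4-fold and 100% of 40 changed 8-fold, with 7 unchanged genes called, and DESeq2 51.2%, 90% and 100% with 39 unchanged genes called. Without any change (14551 genes) limma called 0 and DESeq2 8. These rates describe simulated reads, and whether they hold for the tumors was not tested. In the tumors limma called neither Eln nor F13a1, at log2 fold changes of 3.56 and 3.32 (adjusted p = 0.103 and 0.385 from limma).

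Named genes are up to 10 per direction by the smallest limma p among protein-coding genes whose groups do not overlap, up to 6 per direction called by DESeq2, the members of 39 gene lists with the largest t, the highest level or no overlap, and 6 reference genes. Adgre1, Arg1, Cd3e, Cd74, Cxcl9, Fn1, Foxp3, Gbp2, Gzmb, H2-K1, Iigp1, Krt5, Serpinh1 and Xist were chosen after their values were seen. A gene that the rule names is counted in its list and not reported here. Genes of a list given by a fold change alone are members shown to describe it. The members, lists and tests were chosen with earlier results of these data known. Promoters come from RefSeq (GRCm38.p6) and gene positions from GENCODE (GRCm38). A second deposited table was not used, because its 6 columns match no sample label.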

Additional observations from a re-analysis of the deposited data

Results flagged for a closer look

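The difference between days 46 and 23 in wild-type tumors minus that between days 23 and 13 in tumors labelled RAG1-/- had an adjusted p under 0.05 in DESeq2 for 14 genes named here, and for 0 genes in limma. The sets share no tumors, and time and host cannot be told apart. Each difference holds the change in tumors labelled RAG1-/- as well as that in wild-type tumors. For smooth muscle and pericyte markers, means of log2(normalized count + 1) were 6.86, 6.03 and 7.19 at day 13 in tumors labelled RAG1-/-. At day 23 these tumors had 4.57, 6.16 and 5.35, and the days overlapped. Wild-type tumors had 6.18, 5.45 and 5.37 at day 23 and 6.96, 7.86 and 6.70 at day 46. In units of log2, mural and matrix genes had positive differences. These were 4.95 for Eln, 3.11 for Myl9, 3.40 for Notch3, 4.58 for Tagln, 4.57 for Mmp23 and 3.13 for Lrrc15. Adam23, an adhesion protein, had 8.73, a fitted value that rests on 0, 1.70 and 0 normalized counts at day 23 and 15.6, 36.9 and 7.53 at day 46, with at most 2 reads in an early tumor, and is no bound. Acta1, skeletal muscle actin, had 8.33. It stood at 4374, 152 and 4965 normalized counts at day 13 and 30.1, 36.2 and 10.6 at day 23 in tumors labelled RAG1-/-. The level of muscle markers varied between pieces. In these tumors the means of log2(normalized count + 1) of skeletal muscle markers were 8.98, 4.71 and 9.13 at day 13. At day 23 they were 2.62, 2.11 and 3.07. The part of adjoining tissue in the differences of this section was not tested.

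Negative differences were −2.92 for Epha7, −2.54 for Car9, −1.30 for P4ha1, −1.22 for Aspa, −1.20 for Fam162a and −0.86 for Calr. Car9 had 154, 203 and 136 normalized counts at day 13 and 716, 338 and 785 at day 23 in tumors labelled RAG1-/-, where every tumor of day 23 lay above every tumor of day 13, while in wild-type tumors it stood at 864, 696 and 579.9 at day 23 and 518, 388 and 478 at day 46. Epha7 had 72.7, 95.6 and 61.0 and 170.2, 80.9 and 129 in tumors labelled RAG1-/-.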

How the results depend on the processing

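With limma, 0 genes were called in either direction on the 6 wild-type tumors alone, without the trend, without a filter or with one at a mean of 20, with 0.1 or 5 as the pseudocount, and after libraries were set to equal totals or equal upper quartiles, and edgeR called 0. DESeq2 called 25 higher and 16 lower, 68 and 23 on the 6 wild-type tumors alone, and 36 and 22 for the comparison of the hosts. Leaving out 1 tumor gave 0 to 5 higher and 0 to 2 lower in limma (5 and 2 without replicate 1 of day 46, and Eln alone without replicate 2 of day 13 labelled RAG1-/-), 5 to 119 higher and 7 to 149 lower in DESeq2, a fit added after seeing the data, and 0 to 4 and 0 to 2 for the hosts. Signs changed for Col3a1 (0.024 rescaled to the same total, −0.17 to 0.16 without 1 tumor), Arg1 (−0.31 to 1.04), Cd3e (−0.34 to 0.81), Igkc (−0.083 to 1.16) and Acta1 (−0.30 to 2.86). Without 1 wild-type tumor the medians of 13 of 39 gene lists changed sign in at least 1 fit, among them the T cell receptor complex, skeletal muscle, B cells, chemokines, complement and the macrophage and monocyte markers. Same-numbered tumors of the 2 days did not deviate together (correlations −0.116, −0.0176 and −0.017), and differently numbered ones gave −0.043 to 0.068. With 3 tumors per day this check cannot decide whether the numbers pair them. The fit with a replicate block called 0 higher and 0 lower. Equal totals moved the median log2 fold change of all genes from 0.005 to 0.038, and from 0.015 to 0.164 for the hosts, where 1128 genes were higher and 252 lower at an unadjusted p under 0.05 in place of 729 and 550. The causes were not tested.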

Other observations

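Chemokine genes lay on both sides of 0. Of 23 tested, 2 were higher and 4 lower at an unadjusted p under 0.05, with a median of −0.01. The 2 higher were Ccl8 and Cxcl12, and the lower ones included Cxcl10 and Cxcl11, both induced by interferon. Of 13 complement genes tested, 0 were higher and 2 lower (median −0.15). Of 14 genes of the unfolded protein and stress response, 0 were higher and 3 lower (median −0.31), among them Hspa5, the main chaperone of the endoplasmic reticulum, at −0.47. Of 8 neutrophil markers 0 were higher and 0 lower (median 0.17), and of 7 dendritic cell markers 1 was lower, Itgax (median 0.40).

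Xist, expressed from the inactive X chromosome, had 0 reads in both libraries of MC38 cells, and 186, 148 and 105 normalized counts at day 23 and 194, 352 and 161 at day 46 in the tumors of female mice (log2 fold change 0.64, SE 0.32, adjusted p of 0.607 in limma). The days overlapped.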
